A study of Mus musculus with 4 samples.

Results

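The genes of cholesterol synthesis, uptake and sterol sensing were followed in mouse liver 9 h after an ethanol binge. They were 27 genes, chosen by name and matched on the gene symbol, out of 22155 symbols in the count table. All 27 had enough reads to be tested. Hepatocytes make cholesterol from acetyl-CoA through mevalonate, isoprenoid units, squalene and lanosterol. When sterol in the endoplasmic reticulum is low, the escort protein SCAP carries the transcription factor SREBP-2 to the Golgi, where it is cut and released, and it then turns on most enzymes of the pathway. INSIG proteins hold SCAP back when sterol is plentiful, and the liver is a main organ of both cholesterol synthesis and lipoprotein uptake.

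All mice were C57BL/6 wild-type animals aged 8 to 10 weeks, fed a Lieber-DeCarli liquid diet with 5% ethanol for 10 days. The gavage mice also received a single ethanol dose of 5 g per kg body weight by gavage, a tube into the stomach, 9 h before the liver was taken. The other mice received ethanol feeding alone by their titles, while the treatment text is the same for all 4 samples and describes the binge. Each group held 2 libraries of whole-liver RNA. The sources used here do not state a control gavage, the sex of the mice or the hour at which the mice on ethanol alone were killed. Whether each library came from its own mouse is not stated either, and the p-values below therefore reflect only variation among these 4 samples, which may be technical. Values of a group are listed by replicate number.

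Total counts were 29914491 and 30039731 after gavage and 28791281 and 30347558 on ethanol alone. Values are CPM, counts scaled to a common library size with a correction for composition (TMM), and means are given ± SD with n = 2 per group. Libraries within a group differed beyond sampling noise, and both libraries numbered 1 stood apart by markers of other tissues. The 5 skeletal muscle markers summed to 522 and 0.365 CPM after gavage and 263 and 7.60 CPM on ethanol alone. The adipocyte markers other than Car3, which mouse hepatocytes also make, summed to 44.3 and 0.166 CPM after gavage and 34.0 and 0.132 CPM on ethanol alone. Pancreas markers summed to 0.0955 and 0.166 CPM after gavage and 475 and 0.198 CPM on ethanol alone, with Prss1 at 0 in every library. All 6 hepatocyte markers were present, at a sum, mostly Alb, of 93503 and 112968 CPM after gavage and 136006 and 116137 CPM on ethanol alone. All 6 also had a fitted fold change below 0, from -0.21 for Alb to -1.17 for Fabp1, with a median log2 fold change of -0.59, and 2 of them were lower at an unadjusted p under 0.05 (9.85% of all tested genes). Kupffer cell markers, of the resident liver macrophages, summed to 324 and 365 CPM after gavage and 548 and 567 CPM on ethanol alone. All 8 had a fitted fold change below 0 (median log2 fold change -0.71). At an unadjusted p under 0.05, 6 of them were lower (9.85% of all tested genes). Neutrophil markers summed to 14.2 and 3.65 CPM after gavage and 2.45 and 2.18 CPM on ethanol alone. Of these 7, only 3 had enough reads to be tested, and 2 were higher at that p (8.91% of all tested genes). In bulk tissue, fewer cells of a type and less RNA per cell cannot be told apart. The part of these tissues and cells in the results below was not tested, beyond the values given with libraries left out.

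After the gavage, 20 of the 27 cholesterol genes had a fitted fold change below 0, against 48.3% of the 13309 genes tested. Their median log2 fold change was -0.57, where that of all tested genes was 0.02 and that of the 6 hepatocyte markers was -0.59. Whether the cholesterol genes and the hepatocyte markers moved for a common reason was not tested. Insig1, which encodes the retention protein of the sterol sensor, lay lowest, and Npc1, which encodes the lysosomal cholesterol exporter, lay highest. With edgeR's quasi-likelihood test and Benjamini-Hochberg adjustment, 0 of 27 members passed an adjusted p of 0.05, beside 0 of 13309 genes overall (0%). At an unadjusted p under 0.05, 6 members were lower (background 9.85%) and 3 higher (background 8.91%). DESeq2 called 4 members lower (Acat2, Ebp, Insig1 and Sc5d; background 5.03%) and 1 higher (Npc1; background 4.05%). edgeR's likelihood-ratio test called 2 lower (Acat2 and Insig1; background 1.98%) and 0 higher (background 2.14%), and limma-voom called 0 (background 0%). Every gavage library lay below every library of ethanol alone for 14 members (background 27.2%) and above it for 4 (background 27.5%). The size of the shift changed with the libraries numbered 1. Without replicate 1 of the gavage group the median was -0.26, and without replicate 1 of ethanol alone it was -0.29. Between the replicate 2 libraries alone, 16 of 27 members were lower after gavage, against 49.5% of all tested genes. The median log2 ratio was -0.060 for the members and 0.0030 for all tested genes.

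**Figure D1:**
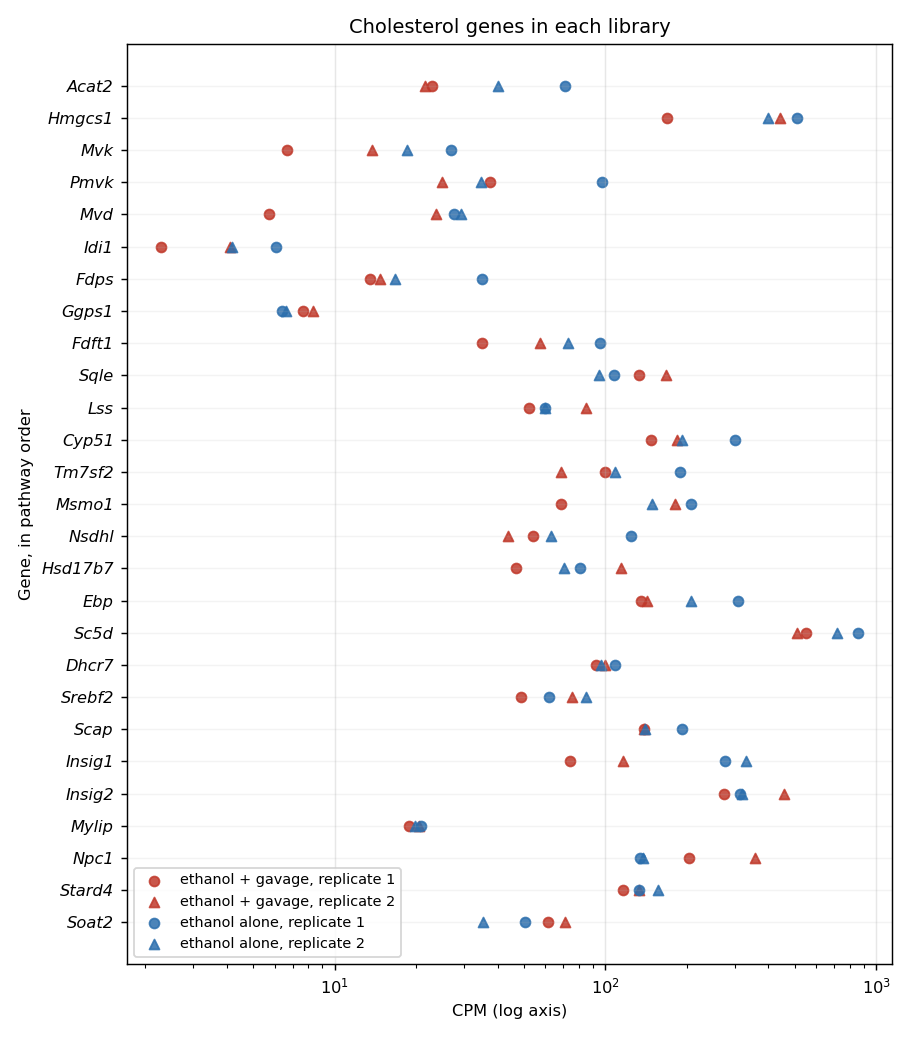
CPM on a log axis of each of the 27 genes in each library, in pathway order from the top, with ethanol plus gavage in red and ethanol alone in blue, and replicate 1 as circles and replicate 2 as triangles. Insig1 and Acat2 have both red points well left of both blue points, while Npc1 has them to the right, and in Hmgcs1 and Msmo1 the red circle alone lies apart.

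The first steps, which make the isoprenoid unit from acetyl-CoA, had all 6 members below 0, with a median log2 fold change of -1.02. Between the replicate 2 libraries alone 5 of the 6 were lower and the median log2 ratio was -0.37, against -1.62 between the replicate 1 libraries. Acat2, the cytosolic thiolase that joins acetyl-CoA units (chromosome 17, 12942890 to 12960747), had 22.8 and 21.7 CPM after gavage, against 71.0 and 40.0 CPM on ethanol alone. Both gavage libraries lay below both libraries of ethanol alone, and nearly together. On the log2 scale the fitted change was -1.32 (SE 0.30), with an adjusted p of 0.156 in edgeR's quasi-likelihood test. Of the 50-base words in Acat2 transcripts, 39.1% also occur in transcripts of its near copy Acat3 or of Tcp1. How the counting treated such reads is not given, so they could have been lost or assigned to another gene. Acat3 itself had 41.2 and 65.0 CPM after gavage and 189 and 199 CPM on ethanol alone, so both gavage libraries lay below ethanol alone in both copies.

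Hmgcs1, the cytosolic HMG-CoA synthase, had 168 and 442 CPM after gavage, against 510.3 and 397 CPM on ethanol alone. Replicate 1 of the gavage group alone was low, and the groups overlapped. Mvk, mevalonate kinase (chromosome 5, 114444269 to 114460591), had 6.66 and 13.8 CPM after gavage, against 26.8 and 18.5 CPM on ethanol alone, with no overlap (log2 fold change -1.15, SE 0.40, adjusted p = 0.235). Pmvk, the next kinase, had 37.5 and 24.9 CPM after gavage and 97.5 and 34.6 CPM on ethanol alone. Here replicate 1 of ethanol alone was the high library and the groups overlapped. Mvd, the decarboxylase that yields isopentenyl diphosphate (chromosome 8, 122433601 to 122443422), had 5.73 and 23.6 CPM after gavage, against 27.7 and 29.2 CPM on ethanol alone. The groups did not overlap, but replicate 1 of the gavage group lay far below the rest (log2 fold change -0.96, SE 0.62, adjusted p = 0.446). Idi1, the isomerase of that unit, had 2.29 and 4.12 CPM after gavage and 6.08 and 4.16 CPM on ethanol alone. Its replicate 2 libraries were nearly equal, and 25.3% of its 50-base words occur in other genes, so its counts are uncertain.

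The promoters of Hmgcs1 and Mvk are shown because both genes belong to this step and differ in the boxes they hold. Windows of 250 bases before to 50 after the start came from RefSeq (GRCm38.p6), and 21 of the 27 genes matched by symbol. Sqle, Fdps, Fdft1, Stard4, Npc1 and Soat2 had no window. The stretches below are upstream of the start and free of annotated exons. Capitals mark, on either strand, TCACCCCAC (a sterol regulatory element, the kind of site SREBP binds), CCAAT (the NF-Y box), GGGCGG (the Sp1 box) and CACGTG (an E-box), and no matches overlapped in the stretches shown.
Hmgcs1, chr13:119690101-119690350, plus strand: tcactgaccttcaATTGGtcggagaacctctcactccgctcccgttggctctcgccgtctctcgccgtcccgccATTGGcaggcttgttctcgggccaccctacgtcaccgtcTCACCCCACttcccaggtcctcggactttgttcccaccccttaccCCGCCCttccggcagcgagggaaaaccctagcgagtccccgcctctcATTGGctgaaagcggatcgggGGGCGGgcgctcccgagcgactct
Mvk, chr5:114444061-114444268, plus strand: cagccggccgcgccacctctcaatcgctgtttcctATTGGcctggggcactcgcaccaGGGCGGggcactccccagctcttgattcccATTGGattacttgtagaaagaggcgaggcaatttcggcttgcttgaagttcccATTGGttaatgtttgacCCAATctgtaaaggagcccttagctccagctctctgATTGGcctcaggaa

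Hmgcs1 carries the sterol regulatory element starting 137 bases before its start, the only match to these letters among the 21 members with a window, where 0.76% of the 10327 tested genes with a window held it. CCAAT was found in 19 of the 21 (90.5%), against 42.7% of those 10327 genes, with Scap and Acat2 as the exceptions. GGGCGG was found in 19 of the 21, against 66.3%, and CACGTG in 5 of the 21, against 11.5%. These are matches of letters and not bound sites. The Mvk stretch spans the whole gap to Mmab, a gene of cobalamin metabolism on the other strand whose start lies 209 bases away. Mmab, which is also in the list of other SREBP-responsive genes counted below, was looked at for this position. It had 11.3 and 24.2 CPM after gavage, against 31.4 and 34.3 CPM on ethanol alone, with a log2 fold change of -0.88. As in Mvk, both gavage libraries lay below both libraries of ethanol alone and gavage replicate 1 was the lowest.

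The enzymes from prenyl chains to lanosterol were divided, with 2 of 4 below 0 and a median log2 fold change of -0.33, which was 0.16 between the replicate 2 libraries alone. Fdps, farnesyl diphosphate synthase (chromosome 3, 89093588 to 89101959), had 13.5 and 14.6 CPM after gavage, against 34.9 and 16.7 CPM on ethanol alone (log2 fold change -0.87, SE 0.36, adjusted p = 0.279). The groups did not overlap, with replicate 1 of ethanol alone far above the rest. Of its 50-base words 26.2% occur in other genes, among them Gm43738, which overlaps it on the same strand. Fdft1, squalene synthase (chromosome 14, 63145150 to 63179578), had 35.2 and 57.1 CPM after gavage, against 95.7 and 72.7 CPM on ethanol alone (log2 fold change -0.87, SE 0.30, adjusted p = 0.235). All gavage values lay below those of ethanol alone. Of the 50-base words of Fdft1, 26.5% occur in Ctsb or Gm6781, so its counts are uncertain too. Its exons share 18.3% of their bases with Ctsb on the opposite strand, and the strand setting of the counting is not given. Smaller overlaps on the opposite strand touch Scap (13.2%), Hmgcs1 (12.1%), Npc1 (5.31%), Ggps1, Idi1, Lss and Cyp51, so their counts carry the same doubt. Tm7sf2 shares 12.1% of its exon bases with Vps51 on the same strand, an overlap that no strand setting would separate.

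Sqle, the squalene epoxidase that commits squalene to sterols, lay the other way, with 133 and 167 CPM after gavage against 107 and 94.4 CPM on ethanol alone. Both gavage libraries were above both of ethanol alone (log2 fold change 0.57, SE 0.22, adjusted p = 0.258). Lss, which closes the ring to lanosterol, had 52.4 and 85.1 CPM after gavage and 59.8 and 59.7 CPM on ethanol alone, and the groups overlapped. Ggps1 makes geranylgeranyl diphosphate for protein prenylation, a branch away from sterols. It had 7.64 and 8.30 CPM after gavage, against 6.37 and 6.61 CPM on ethanol alone, a small difference without overlap (log2 fold change 0.30, adjusted p = 0.457).

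**Figure D2:**
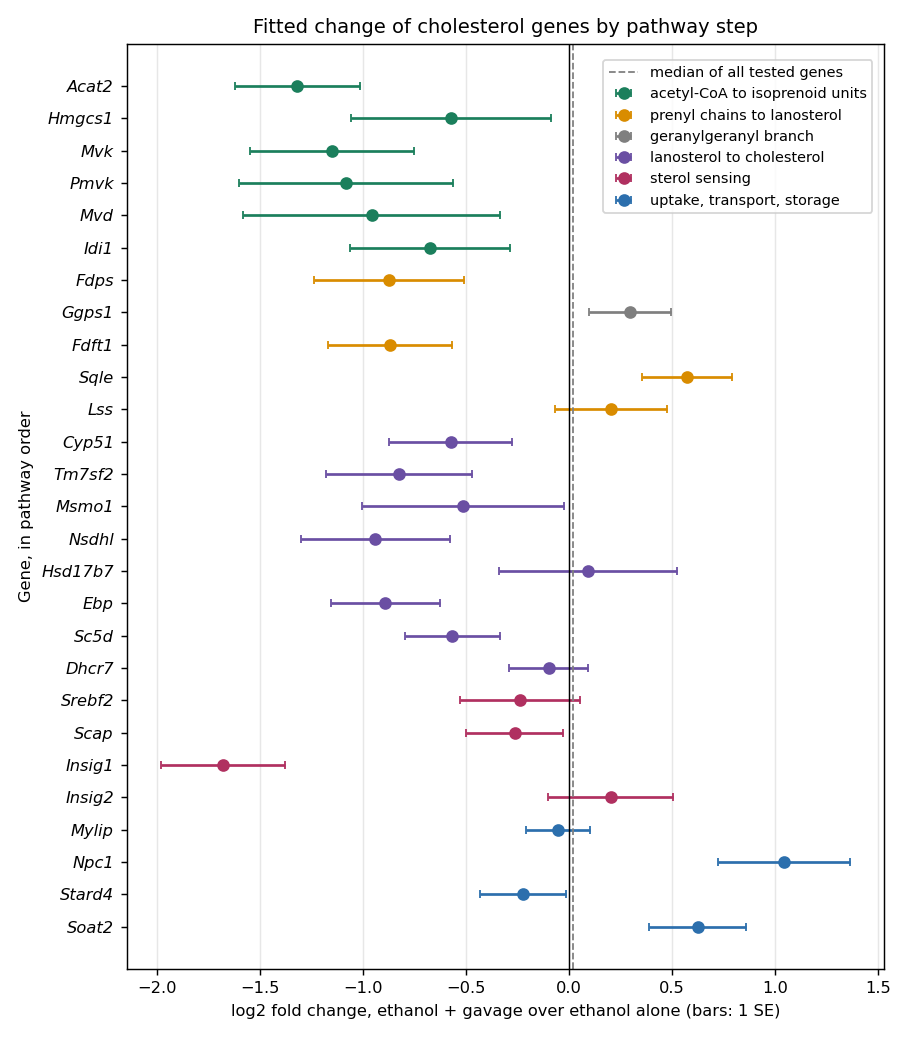
Log2 fold change of ethanol plus gavage over ethanol alone for the 27 genes, in pathway order from the top and coloured by step, with bars of 1 SE and a dashed line at the median of all tested genes (0.02). The 6 members of the first step all lie left of 0, and Npc1, Soat2 and Sqle lie farthest right.

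From lanosterol to cholesterol, 7 of 8 enzymes were below 0, with a median log2 fold change of -0.57. Between the replicate 2 libraries alone, 5 of 8 were lower and the median log2 ratio was -0.28. Ebp, the sterol isomerase (X chromosome, 8185329 to 8193512), had 135 and 143 CPM after gavage, against 308 and 207 CPM on ethanol alone (log2 fold change -0.89, SE 0.27, adjusted p = 0.204). Nsdhl, a dehydrogenase of C4 demethylation (X chromosome, 72918557 to 72958514), had 54.0 and 43.8 CPM after gavage, against 125 and 62.8 CPM on ethanol alone (log2 fold change -0.94, SE 0.36, adjusted p = 0.260). Tm7sf2, a sterol reductase (chromosome 19, 6062821 to 6068373), had 99.5 and 68.4 CPM after gavage, against 189 and 108 CPM on ethanol alone (log2 fold change -0.82, SE 0.35, adjusted p = 0.288). In these genes the groups did not overlap, and replicate 1 of ethanol alone was the highest library of each.

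Sc5d, the desaturase near the end of the pathway, had 551 and 509 CPM after gavage, against 854 and 715 CPM on ethanol alone. Both gavage libraries were lower (log2 fold change -0.57, SE 0.23, adjusted p = 0.275). Cyp51, the lanosterol demethylase, had 148 and 184 CPM after gavage, against 302 and 192 CPM on ethanol alone, a separation that rested on 1 high library. Msmo1, the C4 methyl oxidase, had 68.6 and 181 CPM after gavage, against 207 and 149 CPM on ethanol alone. Hsd17b7, the ketosteroid reductase of C4 demethylation, had 46.7 and 114 CPM after gavage, against 80.3 and 70.5 CPM on ethanol alone. Both overlapped between the groups, since gavage replicate 1 was the lowest library and replicate 2 lay among or above those of ethanol alone. Dhcr7, the last reductase of one route to cholesterol, had 92.0 and 99.5 CPM after gavage, against 109 and 96.1 CPM on ethanol alone, and the values were close in all libraries (log2 fold change -0.10, adjusted p = 0.817).

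Among the genes of sterol sensing, Insig1 lay furthest from its level on ethanol alone. It had 73.7 and 116 CPM after gavage, against 278 and 332 CPM on ethanol alone, or means of 95.1 ± 30.2 CPM after gavage and 305 ± 38.3 CPM on ethanol alone. The lower library of ethanol alone was 2.39-fold above the higher gavage library, the widest gap among the 18 members without overlap. The log2 fold change was -1.68 (SE 0.30), with an adjusted p of 0.133 in edgeR's quasi-likelihood test. Between libraries of the same number the log2 ratio was -1.91 for replicate 1 and -1.51 for replicate 2. Each ratio rests on 1 library per side, and the part of other tissues in it was not tested. Insig1 is itself a target of SREBP. Its upstream stretch (chromosome 5; the gene spans 28071363 to 28078662) is shown for comparison with Hmgcs1, with the same capitals. It holds a CACGTG and a CCAAT box, and no match to the sterol element as spelled.
Insig1, chr5:28071162-28071362, plus strand: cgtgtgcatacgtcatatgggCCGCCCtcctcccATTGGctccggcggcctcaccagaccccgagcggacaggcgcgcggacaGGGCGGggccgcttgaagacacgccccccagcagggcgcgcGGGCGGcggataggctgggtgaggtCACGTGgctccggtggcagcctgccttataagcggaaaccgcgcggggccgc

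Insig2, its paralogue with the same retention function, had 275 and 455 CPM after gavage, against 314 and 320.4 CPM on ethanol alone. The gavage libraries lay on either side of those of ethanol alone (log2 fold change 0.20, SE 0.30, adjusted p = 0.750). Srebf2, which encodes SREBP-2, had 49.0 and 75.3 CPM after gavage, against 61.7 and 84.7 CPM on ethanol alone, with overlap (log2 fold change -0.24, adjusted p = 0.694). Scap had 138 and 139 CPM after gavage, against 192 and 141 CPM on ethanol alone, where only replicate 1 of ethanol alone stood off. Insig2 and Srebf2 thus overlapped between the groups, and the separation of Scap rested on 1 library.

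Of the genes of transport, storage and receptor turnover, Npc1 and Soat2 lay higher after gavage. Npc1, the lysosomal cholesterol exporter (chromosome 18, 12189692 to 12236400), had 203 and 356 CPM after gavage, against 134 and 137 CPM on ethanol alone. Both gavage libraries were above both of ethanol alone, with replicate 2 the highest (log2 fold change 1.04, SE 0.32, adjusted p = 0.207). Soat2, which esterifies cholesterol in hepatocytes, had 61.5 and 71.0 CPM after gavage, against 50.6 and 35.3 CPM on ethanol alone, also without overlap (log2 fold change 0.63, SE 0.24, adjusted p = 0.254). Stard4, a soluble sterol carrier, had 116 and 133 CPM after gavage, against 134 and 157 CPM on ethanol alone, and the nearest libraries of the groups were almost equal. Mylip, the ubiquitin ligase that marks lipoprotein receptors for degradation, had 18.8 and 20.4 CPM after gavage, against 20.9 and 19.8 CPM on ethanol alone, with overlap (log2 fold change -0.05, SE 0.15, adjusted p = 0.880).

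Levels between genes were compared as CPM per kb of exon, which corrects for length. On ethanol alone, Sc5d stood highest at 161 CPM per kb, followed by Ebp at 112, Hmgcs1 at 98.7, Insig1 at 98.5 and Insig2 at 91.3 CPM per kb. The per-library ranges of Ebp (89.6 to 133), Hmgcs1 (86.4 to 111), Insig1 (89.8 to 107) and Insig2 (90.3 to 92.3) overlapped, so their order was not resolved. After gavage, Sc5d stood at 109 and Insig2 at 105 CPM per kb, also with overlapping ranges, while Insig1 stood at 30.7 CPM per kb. Insig1 was thus level with Insig2 on ethanol alone and below it in both gavage libraries, where Insig1 had 23.8 and 37.6 CPM per kb and Insig2 had 79.2 and 131. The lowest members were Idi1, at 0.915 CPM per kb after gavage and 1.46 on ethanol alone, and Ggps1, at 1.69 CPM per kb after gavage and 1.37 on ethanol alone. Summed over the 18 synthesis enzymes, the level was 397 and 501 CPM per kb after gavage, against 811 and 571 CPM per kb on ethanol alone.

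Most members shared a direction between the libraries of a group. After gavage, 22 of 27 lay lower in replicate 1 than in replicate 2 (81.5%, against 54.3% of all tested genes), as did 6 of the 6 hepatocyte markers. The ratio of replicate 2 to replicate 1 was 4.11 for Mvd, 2.64 for Msmo1, 2.63 for Hmgcs1, 2.44 for Hsd17b7 and 2.07 for Mvk. On ethanol alone, 20 of 27 lay higher in replicate 1 (74.1%, against 50.3% of all tested genes), as did 5 of the 6 hepatocyte markers. The ratio of replicate 1 to replicate 2 was 2.82 for Pmvk and 2.09 for Fdps. Mvd, with the widest spread after gavage, was nearly level on ethanol alone, where the ratio of replicate 1 to replicate 2 was 0.949. Compared by number, 23 of 27 members were lower after gavage in the replicate 1 libraries, against 48.1% of all tested genes. Their median log2 ratio was -0.92 (all tested genes 0.03). In the replicate 2 libraries 16 of 27 were lower, against 49.5% of all tested genes. There the median was -0.060 (all tested genes 0.0030). The median log2 ratio of the 6 hepatocyte markers was -1.06 in the replicate 1 libraries and -0.18 in the replicate 2 libraries. Of the 27 members, 16 were lower and 4 higher in both comparisons by number. The matching share of all tested genes was not computed. The ratios by number rest on 1 library per side and carry no test.

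**Figure D3:**
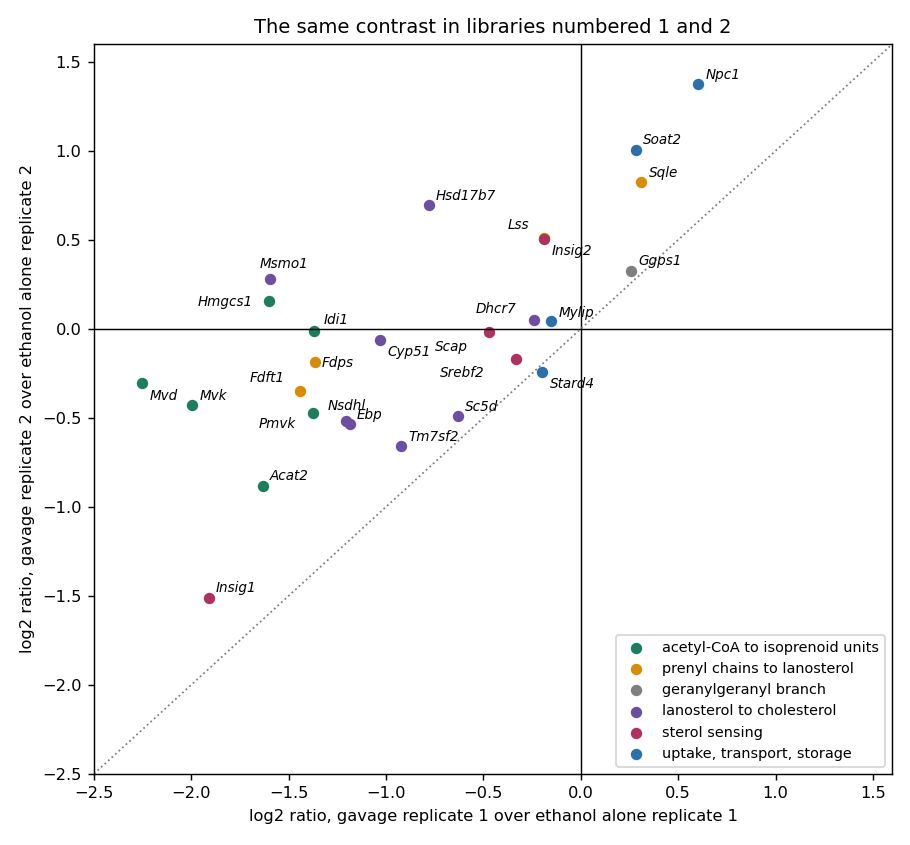
Log2 ratio of ethanol plus gavage over ethanol alone for each of the 27 genes, between the libraries numbered 1 on the horizontal axis and between those numbered 2 on the vertical axis, coloured by step, with a dotted line of equal ratios. Most points lie above the dotted line. Insig1 lies at -1.91 and -1.51, Mvd at -2.25 and -0.31, and the points of Lss and Insig2 coincide.

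Genes beside the pathway were taken from 6 lists, in none of which edgeR's quasi-likelihood test called a gene. Counts at an unadjusted p under 0.05 are to be read against 8.91% of all tested genes higher and 9.85% lower. DESeq2 called 5 genes higher and 6 lower over the lists (background 4.05% and 5.03%), and the likelihood-ratio test called 3 higher and 1 lower (background 2.14% and 1.98%). Of 14 tested genes of acetyl-CoA supply and other sterol steps, 10 were below 0 (median log2 fold change -0.37). At an unadjusted p under 0.05, 2 lay higher (14.3%) and 3 lower (21.4%). Acat3 lay lowest (log2 fold change -1.87, SE 0.28, adjusted p = 0.124). Acly, which makes cytosolic acetyl-CoA, lay highest, at 2963 and 510.03 CPM after gavage against 318 and 368 CPM on ethanol alone (log2 fold change 2.34, SE 0.82, adjusted p = 0.237). Its replicate 1 of the gavage group was far above the rest. The list of SREBP processing and sensor degradation had 11 of 13 above 0 (median 0.08), and 3 (23.1%) lay higher and 0 lower at that p. Mbtps2, a protease that cuts SREBP, had 19.3 and 15.4 CPM after gavage, against 9.30 and 9.94 CPM on ethanol alone (log2 fold change 0.85, SE 0.20, adjusted p = 0.163). Paqr3, a Golgi anchor of SCAP, stood at 11.9 ± 4.36 CPM after gavage and 6.33 ± 2.12 CPM on ethanol alone.

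Of 19 genes of lipoprotein uptake and sterol transport, 12 were below 0 (median -0.07). At an unadjusted p under 0.05, 1 lay higher (5.26%) and 2 lower (10.5%), shares near those of all tested genes (8.91% and 9.85%). Scarb1, the high-density lipoprotein receptor, had 99.7 and 148 CPM after gavage, against 228 and 258 CPM on ethanol alone (log2 fold change -0.97, SE 0.27, adjusted p = 0.192). Gramd1c, of a family of sterol transfer proteins, had 72.1 and 125 CPM after gavage, against 44.2 and 55.7 CPM on ethanol alone. Stard10, a phospholipid carrier, stood at 690.5 ± 175 CPM after gavage and 997 ± 135 CPM on ethanol alone. Of 14 LXR receptors, targets and efflux genes, 8 were below 0 (median -0.12), with 3 (21.4%) higher and 0 lower at that p. Abca1, the cholesterol efflux transporter, had 318 and 444 CPM after gavage, against 139 and 241 CPM on ethanol alone (log2 fold change 1.00, SE 0.35, adjusted p = 0.240). Cyp27a1, which makes 27-hydroxycholesterol, had 272 and 202 CPM after gavage, against 727 and 296 CPM on ethanol alone, where replicate 1 was far above the rest.

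Among 21 genes of the non-sterol isoprenoid branches, 11 were below 0 (median -0.02). At an unadjusted p under 0.05, 1 lay higher (4.76%) and 2 lower (9.52%), no more than among all tested genes (8.91% and 9.85%). Pdss1, for the ubiquinone side chain, stood at 3.65 ± 0.385 CPM after gavage and 2.17 ± 0.481 CPM on ethanol alone. Fntb, a farnesyltransferase subunit, stood at 5.78 ± 0.287 CPM after gavage and 3.45 ± 0.349 CPM on ethanol alone, and Nus1, of dolichol synthesis, at 91.7 ± 10.1 CPM after gavage and 78.0 ± 10.1 CPM on ethanol alone. The 13 other SREBP-responsive genes had 7 below 0 (median -0.10), with 3 (23.1%) higher and 2 (15.4%) lower at that p. Acaca, Fasn and Elovl6 of that list lay highest in replicate 1 of the gavage group, the library in which Hmgcs1, Mvd and Msmo1 lay lowest. Acaca, acetyl-CoA carboxylase, had 573 and 158 CPM after gavage, against 52.5 and 66.1 CPM on ethanol alone (log2 fold change 2.62, SE 0.64, adjusted p = 0.166). Elovl6, a fatty acid elongase, had 1499 and 358 CPM after gavage, against 106 and 201 CPM on ethanol alone. Fasn, the fatty acid synthase, stood at 3409 ± 2597 CPM after gavage and 878 ± 417 CPM on ethanol alone. Adipocyte markers other than Car3 summed to 44.3 CPM in replicate 1 of the gavage group and 34.0 CPM in replicate 1 of ethanol alone. In the latter library Acaca had 52.5 and Elovl6 106 CPM, the lowest value of each. The part of adipocytes in these values was not tested.

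**Figure D4:**
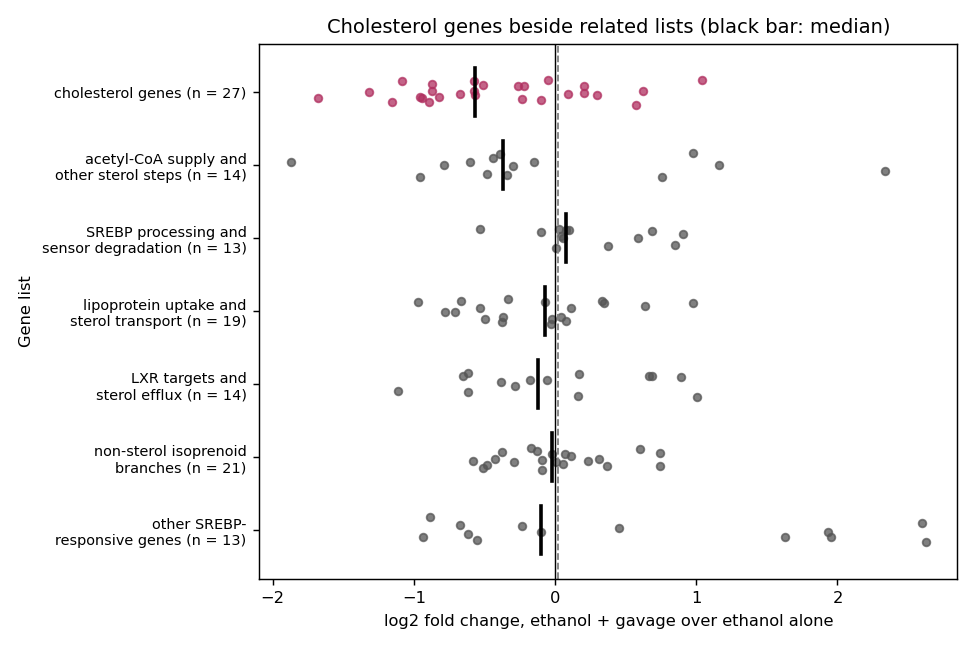
Log2 fold change of ethanol plus gavage over ethanol alone for each tested gene of the cholesterol genes (red) and of 6 related lists (grey), with the median of each list as a black bar and that of all tested genes as a dashed line (0.02). The medians run from -0.57 for the cholesterol genes to 0.08 for SREBP processing, and each list has genes on both sides of 0.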

How the data were processed

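The authors deposited whole-number counts per gene symbol, 1 column per library and not normalised. Per the submitters' processing notes, the tools were STAR 2.6.0a, HTSeq, edgeR and bcl2fastq 2.20.0.422, on build GRCm38, with no step named for each. The sources used here give no annotation, strand setting or treatment of multimapping reads. Per the labels' protocols, RNA was extracted with Trizol, and both a TruSeq and a KAPA kit are named.

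The members, lists and tests were chosen with earlier results of these data known. Samples were grouped by title. In R 4.3.3, edgeR 4.0.16 kept 13309 genes by filterByExpr (minimum count 10, total 15) and applied TMM scaling and the 2-sided quasi-likelihood F-test without covariates. P-values were adjusted by Benjamini-Hochberg over all 13309 genes. The SE came from the fold change and F (its absolute log2 value over the root of F). The common dispersion was 0.0966. A floor of 3 counts corresponds to 0.0955 to 0.110 CPM per library, for counting error only. Chi-square per degree of freedom was 157 within the gavage pair and 147 within ethanol alone. Ratios between single libraries used CPM plus 0.1. The steps were tested on simulated counts that held no differences in other tissues between libraries. How the steps act with such differences was not tested.

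Every member is named. Full statistics were fixed for the 10 non-overlapping members with the largest change whose mean reached 1 CPM, and are given for a few others. In each related list the 2 genes with the largest change and the most abundant one are named, except where an item is not reported here. Mmab was added for its position, and the comparison within replicate 2, after values were seen. Exon lengths, coordinates and shared 50-base words came from GENCODE M21 (GRCm38), and promoters from RefSeq (GRCm38.p6). Alternatives were a replicate block, DESeq2 1.42.0, limma-voom (limma 3.58.1), the likelihood-ratio test, 3 other scalings, 2 other filters and each library left out.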

Additional observations from a re-analysis of the deposited data

How the results depend on the processing

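No member was called under the other scalings, the other filters, limma-voom or with any library left out. DESeq2 called 1159 of 12755 genes and the likelihood-ratio test 549 of 13309. With the replicate number as a block, 410 of 13309 were called. Of these calls, 5, 2 and 2 were among the 27 members, in that order. With the block, Insig1 (-1.71, adjusted p = 0.0263) and Acat2 (-1.26, adjusted p = 0.0451) were called. Same-numbered deviations correlated at 0.449 over the tested genes, but there are only 2 pairs and the labels do not say that the numbers mark them, so by the labels the samples share only a number. With a library left out, the count over all genes ran from 0 to 31, being 31 without gavage replicate 2 and 12 without replicate 2 of ethanol alone. The count of members called was 0 in each. The members' median ran from -0.79 to -0.26 and the count below 0 from 17 to 23. With the replicate 2 libraries alone, chosen after seeing the data, these were -0.060 and 16, where 49.5% of all tested genes were lower. The cause was not tested.

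Over 43 named genes, a call was gained in 19 fits with another setting, while the sign turned in 3 fits with another setting and in 7 with a library left out. Hsd17b7 was at -0.042 with the block and in limma-voom and Mylip at 0.022 with library totals. With libraries left out, Hsd17b7 ranged from -0.70 to 0.60, Lss from -0.20 to 0.51, Msmo1 from -1.38 to 0.024, Insig2 from -0.21 to 0.52, Srebf2 from -0.59 to 0.042 and Mylip from -0.15 to 0.0073. Depth limits Idi1 most, the least counted member, with 72 and 124 counts after gavage and 166 and 126 on ethanol alone.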
